A study of Mus musculus with 6 samples.

Results

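The 9 genes described here belong to the alternative, or type 2, programme of macrophages and were chosen by name: the receptor subunits Il4ra and Il13ra1, the lectins Mrc1, Mgl2 and Clec10a, the inhibitory receptor Cd200r1, and the secreted products Retnla, Chil3 and Ccl24. Each was found as a single row among the 21780 genes of the count table, and all 9 were among the 14429 protein-coding genes with enough counts to be tested. RNA was sequenced from viable CD45+CD11b+ myeloid cells sorted from the pancreas of wild-type C57BL/6J mice aged 6 to 8 weeks. Of the 6 libraries, 3 came from PBS control mice, which had received a single intraperitoneal injection of PBS 7 days earlier. The other 3 came from WGP-treated mice, which had received 1 mg of whole glucan particles (WGP), a particulate beta-glucan from yeast, in PBS on the same schedule. Male and female mice were used, the sex behind each library is not given in the sources used here, and no group carried a transgene or deletion. The sort kept every CD45+CD11b+ cell, so a library is a mixture of macrophages, monocytes, granulocytes and other cells.

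Interleukin-4 and interleukin-13 bind receptors built on the alpha chain encoded by Il4ra, which pairs with the common gamma chain (Il2rg) in the type I receptor and with IL-13 receptor alpha 1 (Il13ra1) in the type II receptor. Janus kinases on these chains phosphorylate STAT6, which enters the nucleus and activates genes such as Mrc1, Retnla and Chil3. Tissue-resident macrophages of many organs carry CD206, the product of Mrc1, in the steady state, and the programme is known from responses to worms, allergy and wound repair.

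The stretches of DNA at the starts of 4 of these genes are shown because STAT6 is known to act at the starts of such genes and because the genes differed in how they changed. The sequences are from RefSeq (build GRCm38.p6), run from 250 bases before to 50 bases after the start of the gene, and are given 5′ to 3′ on the gene's own strand. Capitals mark matches, on either strand, to the STAT motifs TTCNNNNGAA and TTCNNNGAA, to the PU.1 motif GAGGAA and to the C/EBP motif TTGCNNAA. Retnla lies on chr16:48842359-48842658 (plus strand), Chil3 on chr3:106167515-106167814 (minus strand), Mrc1 on chr2:14229164-14229463 (plus strand) and Mgl2 on chr11:70130107-70130406 (plus strand).
Retnla: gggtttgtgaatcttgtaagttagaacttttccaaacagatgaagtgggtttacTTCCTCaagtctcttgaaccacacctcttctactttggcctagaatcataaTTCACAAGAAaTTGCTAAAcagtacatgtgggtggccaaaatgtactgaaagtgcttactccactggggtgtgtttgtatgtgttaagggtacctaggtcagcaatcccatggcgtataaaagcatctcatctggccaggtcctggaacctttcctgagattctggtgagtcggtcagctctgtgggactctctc
Chil3: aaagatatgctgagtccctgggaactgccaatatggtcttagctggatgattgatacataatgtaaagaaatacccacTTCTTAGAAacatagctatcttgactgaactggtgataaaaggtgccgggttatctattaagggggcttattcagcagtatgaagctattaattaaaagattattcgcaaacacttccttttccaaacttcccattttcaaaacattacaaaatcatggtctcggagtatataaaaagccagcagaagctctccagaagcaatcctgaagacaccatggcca
Mrc1: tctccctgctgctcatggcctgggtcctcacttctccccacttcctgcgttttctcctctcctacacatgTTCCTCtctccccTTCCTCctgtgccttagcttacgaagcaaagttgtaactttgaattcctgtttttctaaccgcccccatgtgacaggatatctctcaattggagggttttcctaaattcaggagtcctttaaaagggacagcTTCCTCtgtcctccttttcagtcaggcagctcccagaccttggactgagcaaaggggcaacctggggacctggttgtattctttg
Mgl2: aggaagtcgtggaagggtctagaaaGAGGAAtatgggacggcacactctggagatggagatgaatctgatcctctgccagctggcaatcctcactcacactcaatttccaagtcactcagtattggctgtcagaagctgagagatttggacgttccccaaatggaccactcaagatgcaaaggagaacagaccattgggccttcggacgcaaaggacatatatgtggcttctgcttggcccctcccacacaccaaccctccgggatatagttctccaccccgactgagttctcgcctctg

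The Retnla stretch held the letters TTCNNNNGAA at positions -145 to -136, counted from the first base of the RefSeq gene as 0, followed by a C/EBP match at -134 to -127 and preceded by a PU.1 match at -196 to -191. The Chil3 stretch held TTCNNNGAA at -172 to -164. Mrc1 held 3 PU.1 matches, at -180 to -175, -167 to -162 and -35 to -30, and Mgl2 held 1 PU.1 match at -225 to -220. The 4 motifs do not overlap one another in these stretches. Of 27025 promoters of the same length, 6.99% held TTCNNNNGAA, 8.47% held TTCNNNGAA, 28.3% held the PU.1 letters and 10.8% the C/EBP letters. The promoters of Il4ra and Il13ra1 held none of these letters in the same window. Clec10a, Ccl24 and Cd200r1 are named only. Retnla and Chil3, the pair with a STAT match among these 4, had log2 fold changes of -3.42 and 0.22.

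The libraries held 35334645 to 43341834 counts, and 12147 to 12860 genes had a count in each. Levels are CPM (counts per 1000000 counts of the library) scaled by the TMM method, and n = 3 libraries in each group throughout. The sorted markers were present, with Ptprc (CD45) at 949 to 1043 CPM under PBS and 1536 to 1747 CPM under WGP, and Itgam (CD11b) at 189 to 254 and 379 to 418 CPM. Within the PBS group replicate 1 stood apart, with a summed level of 6 B-cell markers of 2499 CPM against 653 and 378 CPM in replicates 2 and 3, and 89.1 to 177 CPM in the WGP libraries. Its summed level of 12 resident macrophage markers was 8661 CPM, against 14307 and 17458 CPM. Counts of 4 Y-linked genes were 8972 and 10063 in PBS replicates 2 and 3 and at most 1 in the other libraries. RNA of male mice was thus seen in PBS libraries only, so sex and treatment were not balanced. A fit with a term for the presence or absence of these counts rests on PBS replicate 1 for its PBS level. WGP replicate 2 stood apart in 6 fibroblast markers, at 1817 CPM against 33.7 to 48.8 CPM in the other WGP libraries.

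Of the 9 genes, 5 fell in the WGP libraries, namely Mrc1, Mgl2, Clec10a, Retnla and Ccl24, by 4.02-fold to 24.4-fold between the group means. Il4ra rose by a smaller amount, and Il13ra1, Cd200r1 and Chil3 did not pass the test. In edgeR's quasi-likelihood test over all 14429 genes, a gene was called higher or lower when its adjusted p did not exceed 0.05 and its level changed by 1 or more on the log2 scale. By this rule 5 of the 9 were called lower, where 4.96% of all genes tested were called lower, and 0 were called higher, where 4.53% were. At the adjusted p alone the count was 5 lower, against a background of 6.81%, and 1 higher, against 7.54%. All 3 WGP libraries lay below all 3 PBS libraries for 5 of the genes and above them for 2, where 16.0% of all genes tested did so in each direction. The median log2 fold change of the 9 was -2.01, and that of all genes tested was -0.05. In bulk RNA of a mixed sort, fewer cells of a type and less RNA per cell cannot be told apart.

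**Figure D1:**
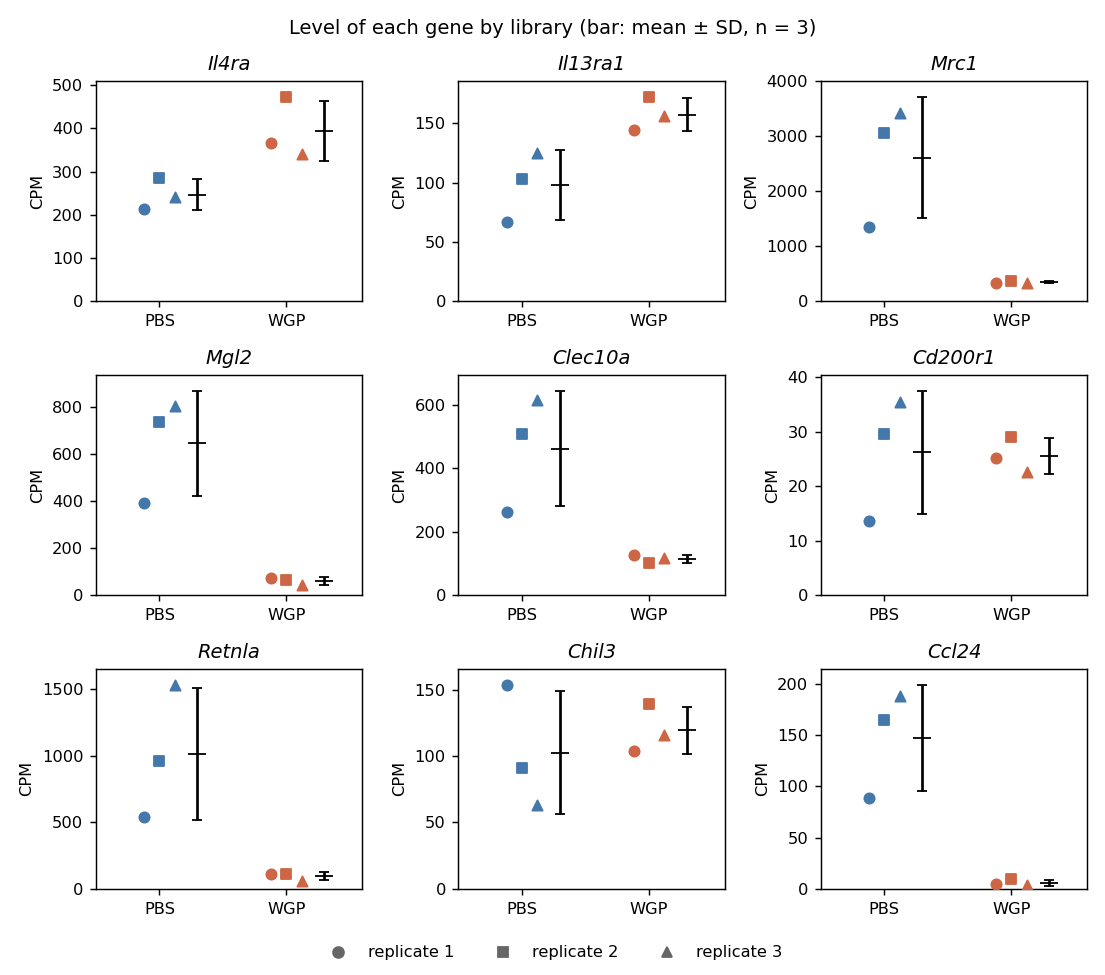
Level of each of the 9 genes in TMM-scaled CPM (vertical axis, from 0) in the PBS (blue) and WGP (orange) libraries, with 1 marker per library and the mean ± SD (n = 3) beside them. Mrc1, Mgl2, Clec10a, Retnla and Ccl24 are lower in all WGP libraries, Il4ra and Il13ra1 are higher in all, and Cd200r1 and Chil3 overlap.

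Il4ra (ENSMUSG00000030748, chr7:125552120-125579474, plus strand) encodes the alpha chain shared by both receptor types. Positions of genes are those of GENCODE M21 on GRCm38, and values under PBS and under WGP are given in the order of replicates 1 to 3. Its levels were 214, 286 and 241 CPM in PBS replicates 1 to 3 and 366, 472 and 342 CPM in WGP replicates 1 to 3. Every WGP library was above every PBS library, with group means of 247 ± 36.2 and 393 ± 69.1 CPM (SD, n = 3). The log2 fold change was 0.67 ± 0.17 (SE, edgeR adjusted p = 0.0272), which is short of the fold change threshold. The adjusted p exceeded 0.05 on leaving out PBS replicate 1 (0.0509) or 3 (0.0733) or WGP replicate 1 (0.0595) or 2 (0.0855), and lay between 0.00309 and 0.0855 over 18 alternatives. The antisense gene Gm44876 shares 571 exon bases with Il4ra on the opposite strand, and the strand setting of the counting is not given in the sources used here.

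Il13ra1 (ENSMUSG00000017057, chrX:36112110-36171259, plus strand) encodes the partner chain of the type II receptor. Its levels were 66.8, 103 and 125 CPM under PBS and 144, 172 and 156 CPM under WGP, again without overlap. The lowest value was that of PBS replicate 1. The group means were 98.4 ± 29.6 and 157 ± 14.0 CPM (SD, n = 3), with a log2 fold change of 0.68 (95% interval 0.20 to 1.16, edgeR adjusted p = 0.0637) that was not called. With the Y-linked term it was called, at a log2 fold change of 1.24 ± 0.21 (SE, edgeR adjusted p = 0.00486), in a range over 18 alternatives from 0.00486 to 0.148. At the adjusted p alone, short of the fold change threshold, it also passed in DESeq2 (0.0338) and limma-voom (0.0489), with the replicate block (0.0357), on leaving out PBS replicate 3 (0.0241) and with counts divided by the most frequent low count (0.0271). Without PBS replicate 1 the log2 fold change was 0.46 (adjusted p = 0.0794). The ratio of Il4ra to Il13ra1 was 3.21, 2.77 and 1.92 under PBS and 2.54, 2.74 and 2.19 under WGP, which overlap (exact permutation test, two-sided p = 0.8).

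Mrc1 (ENSMUSG00000026712, chr2:14229392-14332057, plus strand) encodes the mannose receptor CD206, an endocytic lectin and the best known surface marker of the programme. Its levels were 1354, 3050 and 3415 CPM under PBS and 335, 371 and 338 CPM under WGP. The WGP libraries lay close together, while PBS replicate 1 was below the other PBS libraries yet above every WGP library. Mrc1 fell 7.49-fold, from 2606 ± 1100 to 348 ± 19.7 CPM (SD, n = 3), a log2 fold change of -2.91 ± 0.31 (SE, edgeR adjusted p = 0.000165). The miRNA gene Mir511 lies within Mrc1 and shares 0 of its exon bases.

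Mgl2 and Clec10a encode the galactose-type lectins CD301b and CD301a and are neighbours on chromosome 11. Mgl2 (ENSMUSG00000040950, chr11:70130329-70137550, plus strand) was at 391, 738 and 807 CPM under PBS and 73.5, 64.9 and 43.2 CPM under WGP. It fell 10.7-fold, with a log2 fold change of -3.41 ± 0.30 (SE, edgeR adjusted p = 5.91e-05). Clec10a (ENSMUSG00000000318, chr11:70156197-70170834, plus strand) was at 262, 507 and 616 CPM under PBS and 125, 101 and 118 CPM under WGP. It fell 4.02-fold, with a log2 fold change of -2.01 ± 0.28 (SE, edgeR adjusted p = 0.000804). Neither gene's groups overlapped. The genes share 148 windows of 75 bases, the read length, which are 6.56% of the windows of Mgl2 and 4.44% of those of Clec10a, so reads there cannot be assigned to either.

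The ratio between the neighbouring lectins also differed. The ratio of Mgl2 to Clec10a was 1.50, 1.45 and 1.31 under PBS and 0.588, 0.645 and 0.365 under WGP. Per length of exon the group means were 308 and 159 RPKM (CPM per kilobase of exon) under PBS for Mgl2 and Clec10a, and 28.9 and 39.6 RPKM under WGP, so their order turned over. The mean ratio was 2.67-fold lower in the WGP libraries (exact permutation test, two-sided p = 0.1, the smallest that 3 against 3 libraries allow). The ratios between genes given here were chosen after the values were seen.

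Cd200r1 (ENSMUSG00000022667, chr16:44765736-44794978, plus strand) encodes the receptor for CD200, which restrains myeloid cells. Its levels were 13.7, 29.5 and 35.4 CPM under PBS and 25.1, 29.0 and 22.5 CPM under WGP, which lay between the PBS extremes. The group means were 26.2 ± 11.2 and 25.5 ± 3.24 CPM (SD, n = 3). The log2 fold change of -0.04 (edgeR adjusted p = 0.966) had a 95% interval from -0.76 to 0.69, which spans changes in both directions. Its direction changed with the fit, from -0.35 without PBS replicate 1 to 0.90 with the Y-linked term, and none of 18 alternatives called it. The sister gene Cd200r4, which shares 14 windows of 75 bases with Cd200r1, was at 0, 1.57 and 3.64 CPM under PBS and 10.1, 17.9 and 23.8 CPM under WGP (edgeR adjusted p = 0.0781). Of 7 tested genes of the CD200 receptor family and its signalling, 0 were called, and 1, Rasa1, a negative regulator of Ras, was lower at the adjusted p alone, which it did not pass with the Y-linked term (0.0572) or on leaving out PBS replicate 2 (0.0647) or WGP replicate 3 (0.0579).

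Retnla (ENSMUSG00000061100, chr16:48842551-48844461, plus strand) encodes RELM alpha (FIZZ1), a small secreted protein of macrophages exposed to interleukin-4. Its levels were 543, 962 and 1533 CPM under PBS and 112, 112 and 60.6 CPM under WGP. It fell 10.7-fold, from 1013 ± 497 to 94.9 ± 29.7 CPM (SD, n = 3), a log2 fold change of -3.42 ± 0.38 (SE, edgeR adjusted p = 0.000234), and the groups did not overlap. Its relative Retnlg, a product of neutrophils, was at 186, 89.8 and 57.6 CPM under PBS and 86.0, 48.4 and 48.0 CPM under WGP (log2 fold change -0.87, edgeR adjusted p = 0.187).

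Chil3 (ENSMUSG00000040809, chr3:106147554-106167564, minus strand) encodes the chitinase-like protein Ym1, which macrophages and neutrophils make. Its levels were 154, 91.3 and 62.9 CPM under PBS and 104, 139 and 116 CPM under WGP. The highest and the lowest values were both in PBS libraries, and the highest was in PBS replicate 1. The log2 fold change was 0.22 (95% interval -0.40 to 0.84, edgeR adjusted p = 0.676). It was 0.63 without PBS replicate 1 (adjusted p = 0.0667) and -0.36 with the Y-linked term (adjusted p = 0.427), in a range over 18 alternatives from 0.0667 to 0.956. Chil3 shares 208 of its 1606 windows of 75 bases (12.95%) with Chil4 and Gm6522. Chil4, the gene of Ym2, had 1 count under PBS and 3 under WGP, so hardly any reads were assigned to it. How the counting treated reads of the shared windows is not given in the sources used here. The summed level of 10 neutrophil markers, 1 of which is Retnlg, was 6006, 3475 and 2308 CPM in PBS replicates 1 to 3 and 2587 to 2676 CPM in the WGP libraries. Its part in the levels of Chil3 was not tested.

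Ccl24 (ENSMUSG00000004814, chr5:135569937-135573049, minus strand) encodes eotaxin-2, which attracts eosinophils through the receptor CCR3. Its levels were 89.0, 165 and 188 CPM under PBS and 4.88, 9.19 and 4.01 CPM under WGP. It fell 24.4-fold, from 147 ± 51.8 to 6.03 ± 2.77 CPM (SD, n = 3), the largest fold among the 9 genes, with a log2 fold change of -4.61 (95% interval -5.47 to -3.75, edgeR adjusted p = 4.24e-05) and no overlap. The receptor gene Ccr3 was at 2.44 to 5.98 CPM under PBS and 6.72 to 32.1 CPM under WGP (edgeR adjusted p = 0.0779). The summed level of 8 eosinophil markers, which include Ccr3, was 12.999 to 85.5 CPM under PBS and 16.8 to 62.3 CPM under WGP. The groups thus overlapped, and 1 of the 8, the granule gene Prg3, was at 0 in all 6 libraries. Of the 7 tested, 0 were called, 2 had a log2 fold change above 0 and 5 below 0, with a median of -5.04.

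The 5 falls were called under all 18 alternatives, with log2 fold changes from -3.22 to -1.96 for Mrc1, from -3.68 to -2.69 for Mgl2, from -2.29 to -1.19 for Clec10a, from -3.72 to -2.52 for Retnla and from -5.05 to -3.88 for Ccl24. For each of the 5 the value nearest to 0 was that with the Y-linked term. Without PBS replicate 1 their log2 fold changes were -3.22, -3.68, -2.29, -3.72 and -4.87 in the same order.

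**Figure D2:**
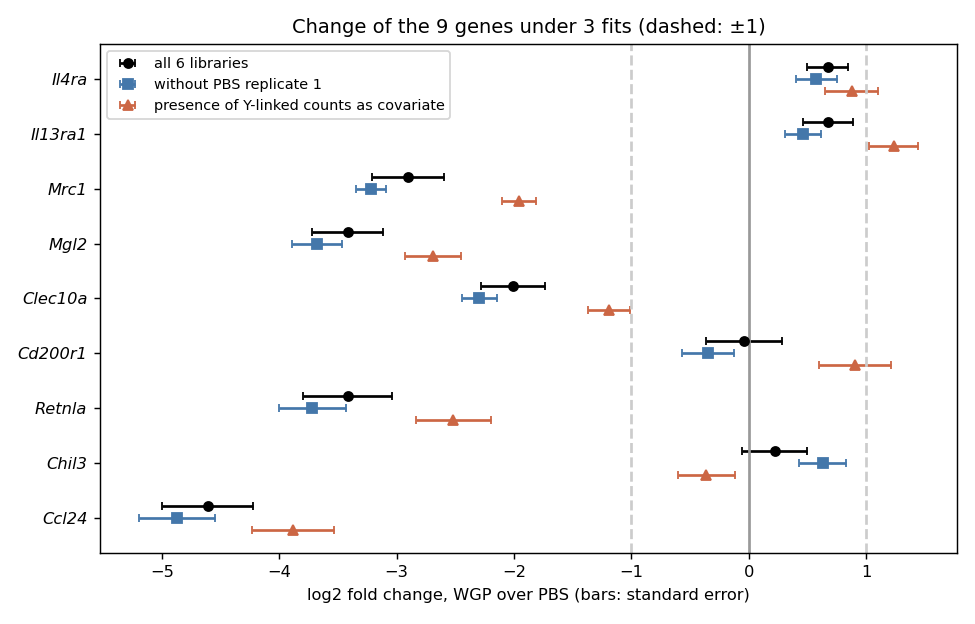
Log2 fold change of WGP over PBS (horizontal axis, bars are standard errors) for the 9 genes in edgeR's fit of all 6 libraries (black circles), without PBS replicate 1 (blue squares) and with a term for Y-linked counts (orange triangles). The 5 falls stay beyond -1 in all 3 fits, while Cd200r1 and Chil3 change sign.

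Compared per length of exon, as CPM per kilobase of exon (RPKM), Retnla had the highest level in both groups, at 1691 ± 830 under PBS and 158 ± 49.5 under WGP (SD, n = 3). In the PBS libraries it was followed by Mrc1 (409 RPKM), Mgl2 (308), Clec10a (159), Ccl24 (114), Chil3 (62.9), Il4ra (41.1), Il13ra1 (26.5) and Cd200r1 (7.82). The ranges of neighbours in this order overlapped from Mrc1 through to Il4ra, but not between Retnla and Mrc1, Il4ra and Il13ra1, or Il13ra1 and Cd200r1. In the WGP libraries the order was Retnla, Chil3 (73.2 RPKM), Il4ra (65.5), Mrc1 (54.6), Il13ra1 (42.4), Clec10a (39.6), Mgl2 (28.9), Cd200r1 (7.62) and Ccl24 (4.65). Ranges overlapped for Chil3 with Il4ra, Il4ra with Mrc1, Il13ra1 with Clec10a, Clec10a with Mgl2, and Cd200r1 with Ccl24. Ccl24 moved from the fifth place to the last, and Il4ra from the seventh to the third.

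PBS replicate 1 was low for each of the genes that fell. Relative to it, PBS replicates 2 and 3 were 2.25-fold and 2.52-fold higher for Mrc1, 1.89-fold and 2.06-fold for Mgl2, 1.94-fold and 2.35-fold for Clec10a, 1.77-fold and 2.82-fold for Retnla, and 1.86-fold and 2.11-fold for Ccl24. Adgre1, which encodes the macrophage antigen F4/80, was 1.87-fold and 1.79-fold higher, and the summed resident macrophage markers were 1.65-fold and 2.02-fold higher. Cd200r1 differed in the same way, by 2.16-fold and 2.59-fold, and Chil3 in the opposite way, at 0.595 and 0.410 times the level of replicate 1. PBS replicates 2 and 3 held Y-linked counts, and replicate 1 did not. The contribution of that, or of B cells and neutrophils in PBS replicate 1, to these differences was not tested.

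Adgre1 itself was at 423, 793 and 756 CPM under PBS and 470, 526 and 469 CPM under WGP (log2 fold change -0.43, edgeR adjusted p = 0.263), so levels were also set against it within each library. The ratio of Mrc1 to Adgre1 was 3.20, 3.85 and 4.52 under PBS and 0.713, 0.705 and 0.720 under WGP, 5.41-fold lower. The PBS libraries lay closer together on this scale than in CPM, and every PBS ratio was above every WGP ratio. The fold between mean ratios was 18.3 for Ccl24, 7.86 for Mgl2, 7.79 for Retnla and 2.92 for Clec10a, lower in the WGP libraries in each case and without overlap. The ratios of Il4ra, Il13ra1 and Cd200r1 to Adgre1 were 2.03-fold, 2.13-fold and 1.35-fold higher, also without overlap, and those of Chil3 overlapped. Each ratio without overlap had a two-sided p of 0.1 in an exact permutation test, the smallest that 3 against 3 libraries allow. Among the genes that fell, Retnla and Mrc1 kept overlapping ratios to each other, at 0.315 to 0.449 under PBS and 0.179 to 0.335 under WGP (p = 0.2 in the exact permutation test). The ratio of Ccl24 to Mrc1 was 0.0541 to 0.0657 under PBS and 0.0119 to 0.0248 under WGP, without overlap.

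**Figure D3:**
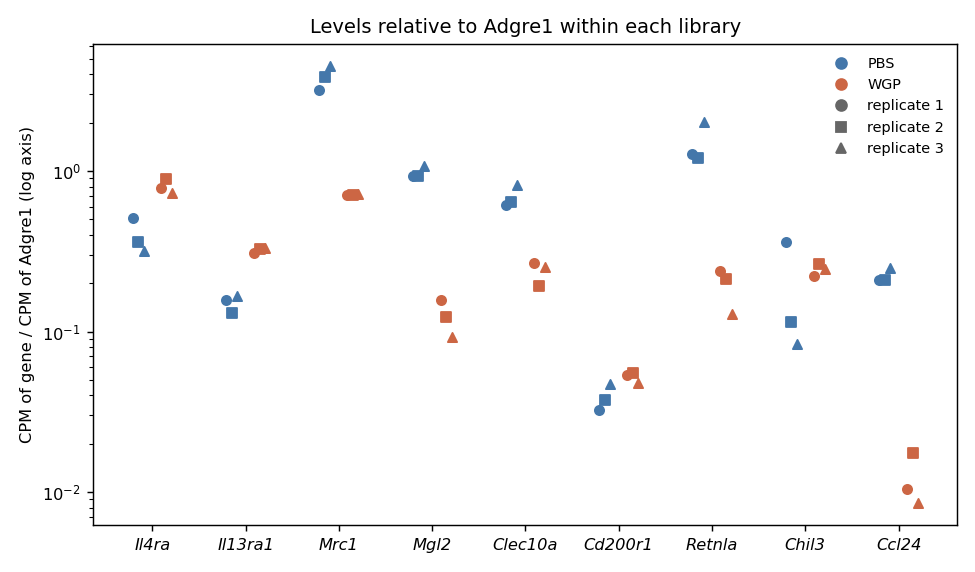
Ratio of the CPM of each gene to that of Adgre1 in the same library (vertical log axis), with PBS libraries in blue, WGP libraries in orange and 1 marker per library. The ratios of Mrc1, Mgl2, Clec10a, Retnla and Ccl24 are lower in all WGP libraries, those of Il4ra, Il13ra1 and Cd200r1 higher in all, and those of Chil3 overlap.

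Of the cytokines that start the programme, few counts were found in these myeloid libraries. Il4 had 68, 0 and 57 counts under PBS and 33, 0 and 40 under WGP, and Il13 had 55, 0 and 0 against 25, 31 and 0. The most frequent low count in a library, read from the smoothed distribution of low counts without the smallest ones, was 18 to 42. The counts of Il4 and Il13 above 0 were 25 to 68. Il5, Il9 and Il25 had 0 counts in all 6 libraries, and 3 counts of the 237907723 in all would be 0.0126 CPM, a limit that covers counting error only. Il33, an alarmin, was at 0.0260, 2.67 and 1.27 CPM under PBS and 2.28, 19.0 and 2.32 CPM under WGP, highest in WGP replicate 2, which also held the most fibroblast marker RNA (edgeR adjusted p = 0.247). Tslp, an epithelial and stromal cytokine, was at 13.2, 11.3 and 10.1 CPM under PBS and 1.30, 0.723 and 1.00 CPM under WGP, a fall of 3.51 on the log2 scale (standard error 0.53, edgeR adjusted p = 0.00143). It alone was called among the 4 cytokine genes tested of 7 listed.

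Among the partner receptors 3 of 5 genes were tested. Il2rg, the common gamma chain, was at 167, 112 and 107 CPM under PBS and 392, 500 and 409 CPM under WGP and rose with a log2 fold change of 1.75 ± 0.20 (SE, edgeR adjusted p = 0.000272). The ratio of Il4ra to Il2rg was 1.28 to 2.55 under PBS and 0.835 to 0.944 under WGP, without overlap. Il1rl1, the receptor of interleukin-33, was at 30.6, 58.8 and 75.4 CPM under PBS and 21.98, 9.89 and 7.67 CPM under WGP and fell by 2.06 on the log2 scale (edgeR adjusted p = 0.00916). That call was lost with the Y-linked term (adjusted p = 0.144, the highest of its 18 alternatives). The decoy receptor Il13ra2 and Il17rb had 0 counts in all 6 libraries.

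Of 14 genes for signalling and transcription factors of the programme, all of them tested, 2 were called higher and 4 lower, with a median log2 fold change of -0.13. Stat6 was at 244, 287 and 307 CPM under PBS and 411, 369 and 388 CPM under WGP, without overlap, with a log2 fold change of 0.48 ± 0.14 (SE, edgeR adjusted p = 0.0531) that did not pass. Irf4, a transcription factor induced through STAT6, was at 426, 199 and 173 CPM under PBS and 48.8, 25.8 and 41.2 CPM under WGP and fell by 2.78 on the log2 scale (standard error 0.36, edgeR adjusted p = 0.00055). Irf4 is also made by B cells, whose markers were highest in PBS replicate 1, and their part in its fall was not tested, while without that library Irf4 was called at a log2 fold change of -2.27. Klf4, a partner of STAT6, fell from 1023, 1255 and 1272 CPM to 261, 198 and 315 CPM (log2 fold change -2.20, edgeR adjusted p = 6.23e-05). Myc was at 199, 91.3 and 76.9 CPM under PBS and 30.7, 35.6 and 18.6 CPM under WGP (log2 fold change -2.11, edgeR adjusted p = 0.00333). Without PBS replicate 1 its log2 fold change was -1.57, and the part of B cells in it was not tested. The adaptor Irs2 fell by 1.78 on the log2 scale. Ppargc1b, a coactivator of oxidative metabolism, rose from 6.89, 7.24 and 8.41 CPM to 30.4, 30.3 and 33.8 CPM, and Cebpb, which activates Arg1, rose from 205, 201 and 149 CPM to 556, 489 and 469 CPM.

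Of 8 inhibitors of interleukin-4 receptor signalling, all tested, 3 were called higher and 0 lower, and all 8 had a log2 fold change above 0, with a median of 0.59. Socs1, which blocks Janus kinases, was at 6.06, 8.65 and 0.904 CPM under PBS and 47.2, 95.8 and 58.4 CPM under WGP, a log2 fold change of 3.69 ± 0.65 (SE, edgeR adjusted p = 0.00354). Its call was lost with the Y-linked term (adjusted p = 0.0637, the highest of its 18 alternatives). Ptpn1, a phosphatase acting on Janus kinases and STAT6, was at 316, 269 and 252 CPM under PBS and 814, 745 and 633 CPM under WGP, a log2 fold change of 1.39 (edgeR adjusted p = 0.000272). Cish rose by less (log2 fold change 1.22, edgeR adjusted p = 0.0386), and its call was lost on leaving out PBS replicate 2 (0.140) or 3 (0.102) or WGP replicate 1 (0.196), with scaling by library totals only (0.0656), in limma-voom (0.0613) and with the Y-linked term (log2 fold change 0.80, adjusted p = 0.335, the highest over 18 alternatives).

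The other genes known from alternative activation moved in both directions. Of 22 listed, 21 were in the table and tested, 7 were called higher and 5 lower, with a median log2 fold change of 0.46. Arg1, arginase 1, which STAT6 and C/EBP beta activate and which bacterial and fungal stimuli also induce, was at 0, 1.62 and 1.15 CPM under PBS and 120, 423 and 242 CPM under WGP (edgeR adjusted p = 0.00019). Every WGP library was above every PBS library, and with so few PBS counts its fitted log2 fold change ranged from 7.56 to 16.3 over 17 alternatives, all of which called it. Il1rn, the interleukin-1 receptor antagonist, rose from 37.3, 44.2 and 27.3 CPM to 806, 658 and 524 CPM, a log2 fold change of 4.19 (edgeR adjusted p = 6.4e-06). Tgm2, transglutaminase 2, and Flt1, a VEGF receptor, both rose with a log2 fold change of 2.96. Slc7a2, an arginine transporter, rose from 6.63, 12.3 and 12.9 CPM to 30.4, 140 and 52.2 CPM, with a log2 fold change of 2.80 that was 1.96 without WGP replicate 2, its highest library, and still called. Cd163, the haemoglobin scavenger receptor, fell from 602, 1320 and 1990 CPM to 31.3, 73.8 and 67.6 CPM, a log2 fold change of -4.50 ± 0.47 (SE, edgeR adjusted p = 0.000153). The lipid receptor Cd36 fell by 2.39 and the prostaglandin synthase Ptgs1 by 1.49 on the log2 scale. With the Y-linked term the log2 fold changes were nearer to 0, at -3.38 for Cd163, -1.67 for Cd36 and -1.01 for Ptgs1. Ccl17 and Ccl22, which attract T cells through CCR4, did not pass, with log2 fold changes of -1.46 and 0.46.

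Some of these calls ended when a single library was left out. Alox15 (log2 fold change 1.86, edgeR adjusted p = 0.0294) was at 0.95 without WGP replicate 1, its highest library, and was not called on leaving out any PBS library (adjusted p from 0.0573 to 0.0901). Ear2 (-1.23, adjusted p = 0.0487) was not called without PBS replicate 2 (0.133) or 3 (0.167) or WGP replicate 2 (0.125) or 3 (0.139), and its groups overlapped. Msr1 (1.27, adjusted p = 0.0183) was not called without PBS replicate 2 (0.0846) or WGP replicate 2 (0.0555). Igf1 (-1.79, adjusted p = 0.00777) was lost only with the Y-linked term (0.120). Chil1, a chitinase-like relative of Chil3, was at 49.6, 18.3 and 12.3 CPM under PBS and 76.1, 109 and 70.0 CPM under WGP, with a log2 change of 1.67 (edgeR adjusted p = 0.0293) that was not called without PBS replicate 2 or 3 or any one WGP library (0.0533 to 0.119). Without PBS replicate 1, the highest PBS library, its log2 fold change was 2.47 and it was called, and with the Y-linked term it was 0.78 and it was not (0.175). Over 18 alternatives the highest adjusted p was 0.149 for Alox15, 0.619 for Ear2, 0.0846 for Msr1 and 0.175 for Chil1.

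Over these 5 lists 55 of 56 genes were in the table, 50 were tested, 13 were called higher and 11 lower, and the median log2 fold change was 0.33. Without PBS replicate 1 the counts were 14 and 11, and without WGP replicate 2 they were 12 and 11. For comparison, of 13 genes of classical activation in the table, all tested, 5 were called higher and 0 lower, with a median of 0.96. Nos2, inducible nitric oxide synthase, had 0 counts under PBS and was at 59.9, 525 and 83.6 CPM under WGP. Of 17 alternatives, limma-voom alone did not call it (adjusted p = 0.213). Il6, an inflammatory cytokine, was at 1.38, 3.52 and 6.48 CPM under PBS and 37.3, 10.1 and 11.8 CPM under WGP, with a log2 fold change of 2.38 (edgeR adjusted p = 0.0348). It was not called in 5 of 18 alternatives, which were limma-voom (0.118), the replicate block (0.0895) and the fits that left out WGP replicate 1 (0.226), PBS replicate 1 (0.0569) or PBS replicate 2 (0.116). Without WGP replicate 1, its highest library, its log2 fold change was 1.53, and without PBS replicate 3 it was 3.01 and called.

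**Figure D4:**
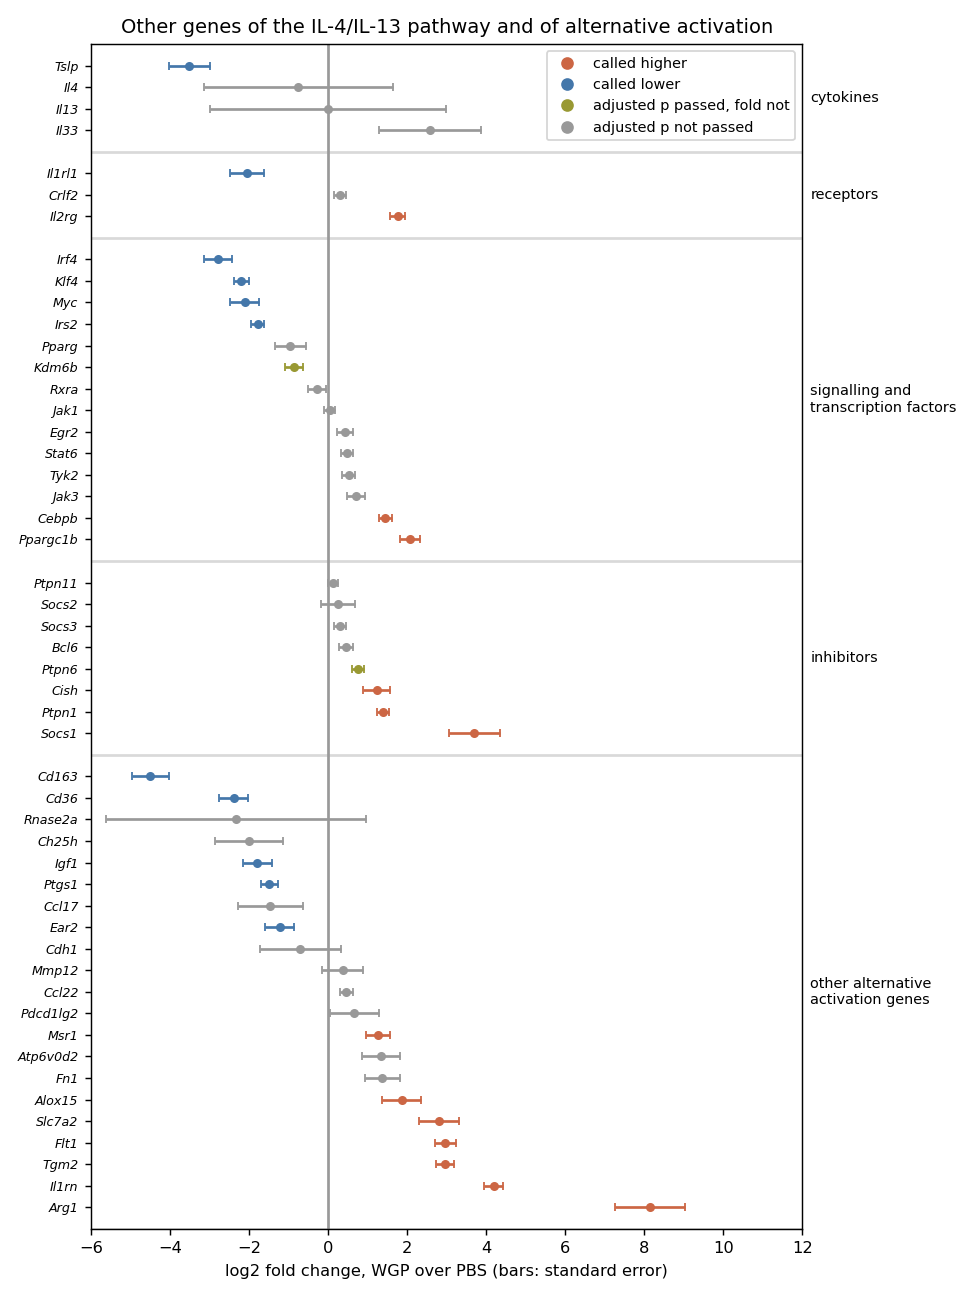
Log2 fold change of WGP over PBS (horizontal axis, bars are standard errors from edgeR's fit) for the 50 tested genes of 5 lists, grouped as cytokines, receptors, signalling and transcription factors, inhibitors and other alternative activation genes. Orange marks the 13 called higher, blue the 11 called lower, olive those past the adjusted p alone and grey the rest.

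The 3 genes whose profiles over the 6 libraries lay nearest to each gene that fell were found by the root mean square difference of mean-centred log2 CPM. For Mrc1 these were Dab2 (0.211), Jup (0.215) and Aldh7a1 (0.226). For Mgl2 they were Psd3 (0.136), Retnla (0.190) and Fcrls (0.190), and for Retnla they were Mgl2 (0.190), Epor (0.214) and Gprc5c (0.238), so Mgl2 and Retnla were each among the 3 nearest of the other out of 14429 genes tested. For Clec10a they were Zdhhc14 (0.0918), Slc9a9 (0.0992) and Lifr (0.120). For Ccl24 they were Cd209f (0.135), Plekhg5 (0.151) and Lyve1 (0.292), the last a marker of resident macrophages.

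Marker lists of cell types changed in both directions. Of 12 resident macrophage markers 9 were called lower and 0 higher, with a median log2 fold change of -2.56, and their summed level was 8661 to 17458 CPM under PBS and 3470 to 5707 CPM under WGP. The Y-linked term ended the calls of C1qa (adjusted p = 0.0756), C1qc (0.106) and Maf (log2 fold change -0.89), and limma-voom ended that of Vsig4 (0.0666). Within this list Folr2, Timd4, Lyve1 and Cd163 fell with log2 fold changes of -3.67, -3.55, -4.66 and -4.50, while Mertk (0.02) and Adgre1 (-0.43) did not pass. Of 8 markers of Ly6C-high monocytes 5 were called higher and 1 lower, with a median log2 fold change of 1.92, and their summed level was 2622 to 4235 CPM under PBS and 3812 to 4424 CPM under WGP. The gene called lower, F13a1, which encodes a coagulation factor subunit, was at 1336, 2728 and 3474 CPM under PBS, the largest part of the sum in each PBS library, and at 422, 347 and 503 CPM under WGP. The 6 B-cell markers were all called lower and 9 of 10 acinar markers were, the latter with sums of 1452 to 5470 CPM under PBS and 376 to 634 CPM under WGP. Of these, Ebf1 was not called in limma-voom (adjusted p = 0.0692) or Cel with the Y-linked term (0.0565). Of 8 markers of group 2 innate lymphoid cells 7 were tested, 2 were called lower (Il1rl1 and Rora) and 5 did not pass, with a median log2 fold change of -0.08. Their summed level was 65.7 to 112 CPM under PBS and 22.1 to 37.2 CPM under WGP, with Il1rl1 the largest part under PBS and the defining gene Il5 at 0 in every library. The call of Rora was lost in 5 of 18 alternatives (highest adjusted p 0.315). Of 8 markers of conventional dendritic cells 1, Cd209a, was called lower and 7 did not pass, with a median log2 fold change of -0.32. Their summed level was 291 to 337 CPM under PBS and 145 to 267 CPM under WGP. The call of Cd209a was lost with the Y-linked term. Among 8 markers of large peritoneal macrophages 1 was called higher and 0 lower, and among 6 fibroblast markers 0 were called. The part of these cell types in the levels of the 9 genes was not tested.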

How the data were processed

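CD45+CD11b+ cells were sorted from mouse pancreas and poly-A RNA was sequenced as single-end reads of 75 bases from 10 ng of RNA, with 3 PBS and 3 WGP libraries in a single run. The authors aligned the reads to mm10 (GRCm38.p6 in their processing notes) with STAR 2.6 and deposited raw counts per Ensembl gene from HTSeq 0.10.0, without normalization. The annotation release, strand setting and handling of duplicate reads are not given in the sources used here. The reads carry no molecular identifiers, and the most frequent low count in a library was 18 to 42. It was read as the peak of the smoothed distribution of low counts, with the smallest counts left out. A limit set by a count of 0 therefore covers counting error only. Total counts were 35334645 to 43341834 per library.

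Gene IDs were matched to GENCODE M21, in which 21700 of the 21780 genes are protein-coding. Those whose RLE-normalized counts added up to 10 or more in all were fitted in R 4.3.3 with edgeR 4.0.16 (TMM, quasi-likelihood test, all 6 libraries, no covariate), with Benjamini-Hochberg adjustment over 14429 genes. Standard errors (SE) were taken as the size of the log2 change over the square root of F. Replicates are taken as separate animals, as the study states, and otherwise p-values measure only the spread between libraries. Whether the replicate numbers pair the samples is not stated in the sources used here. Correlations of same-numbered deviations were 0.139, 0.00694 and 0.159 over 5398 genes, and those of other pairs -0.166 to 0.0111. With 3 libraries in each group these values cannot decide it. Alternatives were other scalings, DESeq2 1.42.0, limma 3.58.1 (voom), other filters and thresholds, all features of the table, the replicate number as a block, a term for whether a library held Y-linked counts, each library left out, and, chosen after seeing the data, counts divided by the most frequent low count. Ratios were compared by two-sided exact permutation tests.

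The members and gene lists were chosen with earlier results of these data known. Genes named in the text are the 9 members, list genes past the adjusted p, the type 2 cytokines, a few fixed partners and relatives, and for each called member the 3 genes nearest in profile. Ccr3, Ccl17, Ccl22, Adgre1, Mertk, Prg3, Il17rb, Gm6522, Gm44876, Mir511, Itgam and Ptprc were named after their values were seen. Promoter sequences are from RefSeq (GRCm38.p6) and were matched for 6 of the 9 genes. Single genes in the lists share reads with near copies where stated, and such values are uncertain.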

Additional observations from a re-analysis of the deposited data

How the results depend on the processing

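The 5 members called lower were called in all alternatives run, and leaving out each library gave 5 lower and 0 higher each time. Over all genes tested 1369 were called (653 higher, 716 lower), with 2071 (1088 and 983) at the adjusted p alone, 568 (208 and 360) at changes of 2 or more on the log2 scale, and 1146 to 1396 without each library in turn. Of the other pathway genes 24 were called, 14 at that larger change and 20 to 25 without each library. The number of members called higher went from 0 to 1 with a term for Y-linked counts (Il13ra1, log2 fold change 1.24) and to 1 at the adjusted p alone (Il4ra). With counts divided by the most frequent low count, an alternative chosen after seeing the data, 1598 genes and 27 pathway genes were called.

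With the replicate number as a block 1341 genes (655 higher, 686 lower), 24 pathway genes and 5 members lower were called. Whether the numbers pair the samples is not stated. The same-numbered correlations were 0.139, 0.00694 and 0.159, which cannot decide it with so few libraries.

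Of 162 member values under alternatives, 153 kept their direction and their side of the combined threshold on adjusted p and fold, 1 passed it and 8 changed sign. These were Cd200r1 in limma-voom (0.0566), with the replicate block (0.0623), with the Y-linked term (0.90) and on leaving out PBS replicate 2 (0.0577), PBS replicate 3 (0.245) or WGP replicate 3 (0.0455), and Chil3 with that term (-0.36) and without PBS replicate 3 (-0.0327). Without each library in turn the range was -0.35 to 0.24 for Cd200r1 and -0.0327 to 0.63 for Chil3. Their 95% intervals span 0 in the fit of all libraries, and the cause was not tested. Depth limits statements on Il4, Il13 and Arg1 in the PBS libraries.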
